A study of Mus musculus with 16 samples.

Results

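Adipocytes store fatty acids as triglyceride, 3 fatty acids joined to 1 glycerol. The glycerol backbone enters the pathway as glycerol 3-phosphate, made from a glycolytic intermediate by glycerol-3-phosphate dehydrogenase (Gpd1) or from glycerol by glycerol kinase (Gk). Gpam adds the first fatty acid at the mitochondrial membrane, the acyltransferases Agpat2 and Agpat3 add the next to give phosphatidic acid, the lipins Lpin1 and Lpin2 remove its phosphate, and Dgat1 and Dgat2 add the last fatty acid. Mogat1 joins a fatty acid to monoacylglycerol and so reaches the same intermediate by another route. These 10 genes were taken from the deposited expression table by their RefSeq identifiers, and they hold 58 of its 130343 entries and 10 of the 35569 gene symbols found in it.

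Inguinal SAT (subcutaneous adipose tissue) and mesenteric VAT (visceral adipose tissue) came from 8 male C57BL/6J mice of wild-type genotype. The 4 lean mice ate a normal laboratory diet and the 4 obese mice a high-fat diet with 42% of its energy from fat and 0.2% cholesterol, in both cases from 10 weeks of age for 12 to 14 months. With SAT and VAT of every mouse sequenced on their own, 16 libraries of poly(A) RNA form 4 groups of 4, lean SAT, obese SAT, lean VAT and obese VAT. The left and right inguinal pads of a mouse were combined, and vessels that could be seen were cut away by the study, so that each sample is bulk tissue that holds adipocytes together with immune and other cells.

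Total counts ran from 1256082 to 16614407 per library, and the shallowest libraries were VAT of lean mouse 1 and VAT of obese mouse 1 (2247737 counts). Adipoq, Lipe, Fabp4 and the other markers of an 8-gene adipocyte list had counts in every group. Scd1, a fatty acid desaturase, took 23.7% to 25.7% of all counts in obese SAT and 3.28% to 14.0% in lean SAT. In VAT it took 12.5% to 18.5% in obese and 5.04% to 9.20% in lean mice. The scaling of libraries therefore bears on every comparison with obese SAT or obese VAT. Levels are given as CPM, counts relative to the library total, scaled by the TMM method, which sets aside the most extreme genes. With library totals alone, the median of all genes shifted by -0.20 on the log2 scale in the SAT diet comparison and by 0.03 in VAT, and the share of higher genes among those called in SAT went from 54.7% to 20.5%.

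Not all 10 genes could be measured. Counts fell mostly on genes with a single entry in the table, which held 88.7% of the counts of all protein-coding genes, while genes with 8 or more entries held 0.546%. These sums are carried by abundant genes, since the median gene had 25 counts over the 16 libraries in both classes and 34.8% of genes with 1 entry and 20.3% of those with 8 or more had none. Lpin1, with 17 entries, and Gk, with 8, had 0 counts in all 16 libraries, where a count of 0 allows a level of between 0.179 CPM in the deepest VAT library and 2.00 CPM in the shallowest. Lpin2, with 7 entries, had 86 counts over the 16 libraries, and Mogat1, with 4, had 25. How reads shared by several transcripts were counted is not given in the sources used here, so a low count in such a gene was not read as low expression. Values of every gene with several entries, Dgat1 (4 entries) and Acsl1 (8) included, may rest on the stretches that set 1 transcript apart. Lpin1, Lpin2, Gk and Mogat1 did not pass the filter of more than 1 CPM in 3 libraries, and no statement on the phosphatase step or on glycerol kinase can be made from them.

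The other 6 genes, Gpd1, Gpam, Agpat2, Agpat3, Dgat1 and Dgat2, entered the tests as the sum of their entries. Gpam and Agpat3 did so on small counts, 136 and 610 over the 16 libraries, against 3967 for Dgat1, 8360 for Agpat2, 308594 for Gpd1 and 677010 for Dgat2. Diets were compared with edgeR's quasi-likelihood test over 12185 genes, and a gene was called at a Benjamini-Hochberg adjusted p below 0.05. In SAT, 1 of the 6 rose and 0 fell, where 6.35% of all genes tested rose and 5.25% fell. In VAT, 2 of the 6 fell and 0 rose, where 5.28% of all genes tested fell and 6.89% rose. Groups that did not overlap were found for the same 3 changes, where 9.5% of all genes tested lay wholly higher in obese SAT and 6.27% wholly lower in obese VAT. The median change of the 6 was 0.08 on the log2 scale in SAT and -0.69 in VAT, beside 0 and -0.02 over all genes tested.

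**Figure D1:**
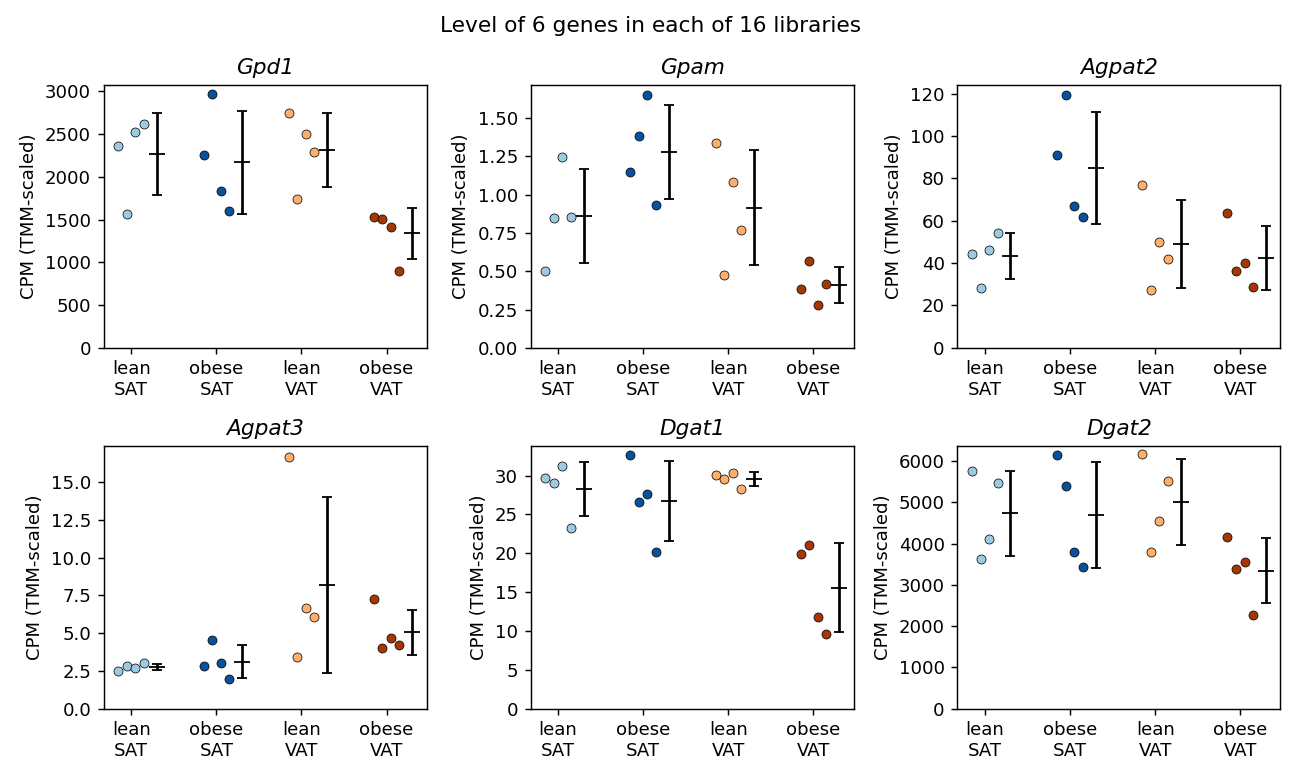
TMM-scaled CPM (vertical axes, from 0) of the 6 genes in each library, with 4 mice per group as points in the order of their numbers and the mean and SD beside them. The 4 obese SAT libraries hold the higher Agpat2 levels of SAT, 61.7 to 119 CPM, while the 4 obese VAT libraries hold the lower Dgat1 levels of VAT, 9.57 to 21.0 CPM, and the lower Gpd1 levels of VAT, 903 to 1529.7 CPM.

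Of the genes of glycerol supply, Gpd1 was measured with many counts and its RNA was lower in VAT of obese mice. Gpd1 (NM_010271, GRCm39 chr15:99615396-99622893, plus strand), the cytosolic dehydrogenase that makes glycerol 3-phosphate, stood at 2746, 1735, 2497 and 2283 CPM in VAT of lean mice 1 to 4 and at 1529.7, 1501, 1415 and 903 CPM in VAT of obese mice 1 to 4. All 4 obese libraries lay below all 4 lean ones, and the mean went from 2315 ± 430 to 1337 ± 294 CPM (SD, n = 4). The log2 fold change was -0.79 (SE 0.20, adjusted p = 0.010 by edgeR), a level 0.578 times that of lean VAT. In SAT the same gene stood at 2364, 1566, 2525 and 2619 CPM in lean mice and at 2259, 2969, 1838 and 1601 CPM in obese mice. The SAT groups overlapped, and the change of -0.07 (SE 0.20, edgeR adjusted p = 0.88) was smaller than its error. An uncharacterised RNA on the other strand, Gm16537, shares 1679 of the 3162 exonic bases of Gpd1, and its 356 counts were 0.115% of those of Gpd1. The strand setting of the counting is not given, so reads from the shared bases cannot be told apart with certainty.

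The first acylation was measured with little precision. Gpam (chr19:55055700-55115784, minus strand), the mitochondrial glycerol-3-phosphate acyltransferase, stood at 0.50, 0.845, 1.25 and 0.855 CPM in lean SAT and at 1.15, 1.38, 1.65 and 0.932 CPM in obese SAT. In VAT the lean mice gave 1.34, 0.478, 1.08 and 0.770 CPM and the obese mice 0.382, 0.566, 0.281 and 0.416 CPM. Groups of each tissue overlapped, a library held between 1 and 24 counts, and neither the change in SAT (0.57, SE 0.41, edgeR adjusted p = 0.42) nor that in VAT (-0.90, SE 0.50, adjusted p = 0.29) was called.

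At the second acylation the diet moved Agpat2 in SAT. Agpat2 (NM_026212, chr2:26483061-26494637, minus strand) is the acyltransferase whose loss causes a generalised lack of fat in mice and people. It stood at 44.3, 28.2, 46.3 and 54.3 CPM in SAT of lean mice 1 to 4 and at 90.8, 119, 66.8 and 61.7 CPM in SAT of obese mice 1 to 4. All 4 obese libraries lay above the 4 lean ones, and the mean went from 43.3 ± 10.9 to 84.7 ± 26.4 CPM (SD, n = 4), a log2 fold change of 0.97 (SE 0.27, edgeR adjusted p = 0.022). In VAT the levels were 76.8, 27.3, 50.1 and 42.1 CPM in lean mice and 63.8, 36.3, 40.2 and 28.7 CPM in obese mice. Those groups overlapped almost throughout, with a change of -0.19 (SE 0.28, edgeR adjusted p = 0.75). The SAT call was lost without lean mouse 2 (0.80, edgeR adjusted p = 0.052), without obese mouse 2 (0.76, adjusted p = 0.089) and with library totals alone (0.77, adjusted p = 0.082), each time with the same direction. Egfl7, a gene on the other strand, shares 1088 of the 4495 exonic bases of Agpat2 and had 159 counts against 8360. Reads from these shared bases cannot be told apart with certainty either.

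Agpat3 (chr10:78105003-78208987, minus strand), which acts on lysophospholipids as well, gave no diet call in either tissue. Its change was 0.17 (SE 0.36, edgeR adjusted p = 0.83) in SAT and -0.52 (SE 0.35, adjusted p = 0.41) in VAT. Its counts came to 1.94 to 4.57 CPM in the 8 SAT libraries and 3.40 to 16.7 CPM in the 8 VAT libraries.

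Agpat2 and the acyl-CoA synthetase Acsl1, described below, rose in SAT by nearly the same factor, so the bases before their annotated starts are shown. RefSeq promoter windows on build GRCm38.p6 were at hand for 7 of the 10 genes (Gpam, Agpat2, Agpat3, Lpin1, Lpin2, Gk and Mogat1). Capitals mark the GC box GGGCGG, and the 250 bases run 5′ to 3′ on the gene's strand up to the start. Windows of Agpat2 (chr2:26604418-26604667, minus strand) and of the upstream and downstream Acsl1 starts (chr8:46470787-46471036 and chr8:46490716-46490965, plus strand) read as follows.
Agpat2: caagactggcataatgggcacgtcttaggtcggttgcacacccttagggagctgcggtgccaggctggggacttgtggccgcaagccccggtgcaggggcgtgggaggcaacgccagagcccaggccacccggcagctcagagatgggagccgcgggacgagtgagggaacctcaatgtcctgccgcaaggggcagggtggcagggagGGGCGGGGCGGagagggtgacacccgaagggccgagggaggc
Acsl1 upstream start: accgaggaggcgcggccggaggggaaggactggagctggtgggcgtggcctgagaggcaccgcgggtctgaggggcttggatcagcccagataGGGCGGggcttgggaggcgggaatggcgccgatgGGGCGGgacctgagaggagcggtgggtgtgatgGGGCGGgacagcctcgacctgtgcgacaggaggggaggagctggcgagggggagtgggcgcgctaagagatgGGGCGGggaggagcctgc
Acsl1 downstream start: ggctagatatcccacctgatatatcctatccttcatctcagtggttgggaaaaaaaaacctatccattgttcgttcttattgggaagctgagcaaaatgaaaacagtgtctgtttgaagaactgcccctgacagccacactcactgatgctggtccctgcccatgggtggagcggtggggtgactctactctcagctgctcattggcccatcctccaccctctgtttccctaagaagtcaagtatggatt

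Agpat2 held 2 GC boxes that overlap in 1 run, the upstream Acsl1 start held 4, and the downstream start held 0. On either strand, GGGCGG or CCGCCC was found in 32.7% of 32841 such windows. G and C made up 69.2% of the Agpat2 window, 72% of the upstream Acsl1 window and 48.4% of the downstream one, beside a median of 52.4%. CCAAT or ATTGG, found in 33.9% of windows, occurred 2 times at the downstream Acsl1 start and not in the other windows shown. TATAAA (12.4% of windows with its reverse complement), the E box CACGTG (6.02%) and AGGTCA (14.0%), a repeat found in sites bound by PPAR receptors, were not in the 3 windows. These are letter matches in short windows and were chosen after the expression values were known.

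At the last acylation, Dgat1 RNA fell in VAT and Dgat2 RNA did not pass the test. Dgat1 (chr15:76385083-76396476, minus strand), which also esterifies retinol and fatty acids released by lipolysis, stood at 30.0, 29.5, 30.3 and 28.3 CPM in VAT of lean mice 1 to 4. In VAT of obese mice 1 to 4 it stood at 19.9, 21.0, 11.8 and 9.57 CPM. Lean VAT libraries were close together and all above the obese ones, and the mean went from 29.5 ± 0.911 to 15.6 ± 5.73 CPM (SD, n = 4). This is a log2 fold change of -0.96 (SE 0.21, edgeR adjusted p = 0.0040), a level 0.515 times that of lean VAT. Of 4 transcript models with counts, 2 passed the filter, and XM_006520405 (log2 fold change -0.84, edgeR adjusted p = 0.016) and XM_017316426 (-1.25, adjusted p = 0.0059) both fell in VAT. The first call was lost without lean mouse 2, obese mouse 3 or obese mouse 4, with a highest adjusted p of 0.070.

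In SAT, Dgat1 stood at 29.7, 29.0, 31.2 and 23.3 CPM in lean mice and at 32.7, 26.6, 27.6 and 20.1 CPM in obese mice. Those groups overlapped, with a change of -0.09 (SE 0.20, edgeR adjusted p = 0.83). Hsf1, the heat shock factor gene, runs against Dgat1 and shares 2486 of its 4551 exonic bases. Whether reads were counted by strand is not given in the sources used here, so reads from the shared bases cannot be told apart with certainty. Hsf1 had 284 counts, 7.16% of those of Dgat1, and a VAT change of -0.07 (edgeR adjusted p = 0.95).

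Dgat2 (NM_026384, chr7:98802491-98831991, minus strand), an unrelated enzyme for the same reaction that works on newly made fatty acids, moved the same way in VAT without reaching the call. Lean mice 1 to 4 had 6176, 3799, 4537 and 5517 CPM there, and obese mice 1 to 4 had 4156, 3379, 3562 and 2264 CPM. The groups overlapped by lean mouse 2, which lay below obese mouse 1, and the log2 fold change was -0.58 (SE 0.20, edgeR adjusted p = 0.065). Leaving out lean mouse 2 (-0.67, adjusted p = 0.045) or obese mouse 1 (-0.67, adjusted p = 0.036) brought it past the limit. So did no filter on low counts (-0.59, adjusted p = 0.00034), the replicate number as a block (-0.59, adjusted p = 0.022) and limma voom, in which the mouse was a random effect (-0.58, adjusted p = 0.040). In SAT it stood at 5752, 3633, 4106 and 5461 CPM in lean mice and at 6147, 5402, 3795 and 3434 CPM in obese mice, a change of -0.01 (SE 0.20, edgeR adjusted p = 0.98).

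Other genes of the pathway came from a list of 28, of which 19 passed the filter. In SAT 2 of the 19 rose and 1 fell, where 6.35% and 5.25% of all genes tested did. In VAT 1 rose and 2 fell, where 6.89% and 5.28% did. Their median change was 0.15 in SAT and -0.10 in VAT on the log2 scale. Of the 5 acyl-CoA synthetases listed, which activate fatty acids before any acylation, 3 were tested and 2 of these, Acsl1 and Acsl5, rose in SAT. Acsl1, the main form of adipocytes, stood at 152, 108, 198 and 201 CPM in lean SAT and at 400, 409, 289 and 213 CPM in obese SAT, a log2 fold change of 0.99 (SE 0.23, edgeR adjusted p = 0.0074). Acsl5 stood at 8.59 to 9.96 CPM in lean SAT and at 14.4 to 15.4 CPM in obese SAT, a change of 0.70 (SE 0.16, edgeR adjusted p = 0.0049). For both genes the SAT groups did not overlap, while the VAT changes were -0.35 (edgeR adjusted p = 0.40) and 0.26 (adjusted p = 0.35). Acsl3 had a SAT change of 1.34 (SE 0.55, edgeR adjusted p = 0.12).

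Among 10 further acyltransferases, phosphatases and helpers tested, Gpat4, a glycerol-3-phosphate acyltransferase of the endoplasmic reticulum, fell in SAT (-1.44, SE 0.43, edgeR adjusted p = 0.032) from 3.27 ± 1.35 to 1.21 ± 0.669 CPM (SD, n = 4). Its call rested on 116 and 61 counts per group and was lost without lean mouse 2 or 3 or without obese mouse 2, 3 or 4, when the adjusted p lay between 0.076 and 0.16. Lpin3, the lipin that could be measured, rose in VAT (1.06, SE 0.29, edgeR adjusted p = 0.019) from 1.75 ± 0.618 to 3.15 ± 0.325 CPM (SD, n = 4). That call was lost without lean mouse 2, 3 or 4 (adjusted p between 0.056 and 0.065) and with no filter on low counts (adjusted p = 0.098). Mogat2, the monoacylglycerol acyltransferase of the intestine, fell in VAT (-2.08, SE 0.50, edgeR adjusted p = 0.0075). Its levels were 3.40 to 10.0 CPM in the lean mice and 0.728 to 1.96 CPM in the obese mice, so that the groups did not overlap. The summed level of 7 markers of intestinal epithelium was also higher in some lean VAT libraries, 18.8 to 65.9 CPM against 18.5 to 26.0 CPM in obese VAT. Of its 5 markers tested, Muc2 fell in VAT and 0 rose, no marker was at 0 in a VAT group, and its part in the Mogat2 result was not tested.

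Among 6 tested genes of glycerol 3-phosphate and glycerol handling, Gpd2, the mitochondrial dehydrogenase that consumes glycerol 3-phosphate, fell in VAT (-1.02, SE 0.25, edgeR adjusted p = 0.0086). It went from 7.68 ± 0.576 to 4.14 ± 1.77 CPM (SD, n = 4), and the call was lost without obese mouse 2 (-0.79, adjusted p = 0.067) or obese mouse 3 (-0.88, adjusted p = 0.053). Pck1, the key enzyme of glyceroneogenesis, was at 1846 to 3830.2 CPM in lean SAT and at 1163 to 2506 CPM in obese SAT, a change of -0.74 (SE 0.26, edgeR adjusted p = 0.074). In VAT its change was -0.55 (SE 0.26, edgeR adjusted p = 0.20), and the groups overlapped in both tissues. Aqp7, the glycerol channel of adipocytes, gave 0.48 (edgeR adjusted p = 0.13) in SAT and -0.31 (adjusted p = 0.41) in VAT.

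**Figure D2:**
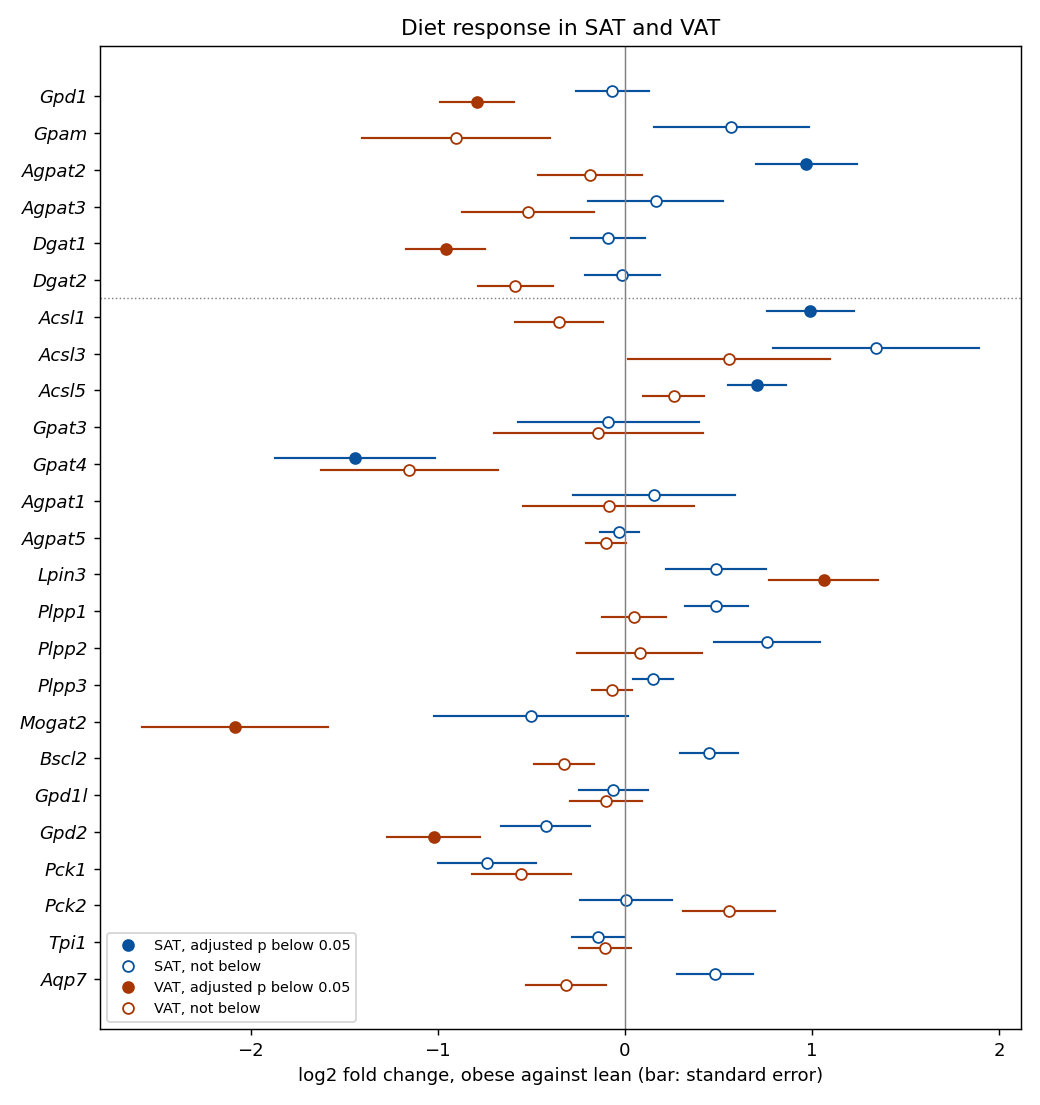
Log2 fold change of obese against lean mice (horizontal axis) with its standard error in SAT (blue) and VAT (red), for the 6 genes above the dotted line and the 19 tested pathway genes below it, filled where the edgeR adjusted p is below 0.05. Agpat2, Acsl1 and Acsl5 are filled to the right of 0 in SAT, while Gpat4 is filled to the left. In VAT, Gpd1, Dgat1, Gpd2 and Mogat2 are filled to the left of 0 and Lpin3 to the right.

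Adipocyte markers moved with these results in VAT. Of 8 markers, 4 fell in VAT (Adipoq by 0.62, Plin1 by 0.61, Lipe by 0.70 and Cfd by 1.40 on the log2 scale, with edgeR adjusted p between 0.0020 and 0.037) and 0 rose, while in SAT 1 (Cfd) fell. Of all genes tested, 5.28% fell in VAT and 5.25% in SAT. Their summed level was 22504 to 34820 CPM in lean VAT and 15384 to 25549 CPM in obese VAT, with no marker at 0. It was 41275 to 58323 CPM in lean SAT and 36956 to 52650 CPM in obese SAT. Macrophage markers rose in both tissues, 5 of the 5 tested in VAT and 4 of the 5 in SAT, where 6.89% and 6.35% of all genes tested rose. Their sum went from 2313 to 3033 CPM in lean VAT up to 4904 to 7030.4 CPM in obese VAT. In bulk tissue a smaller share of adipocytes and less RNA of a gene per adipocyte cannot be told apart.

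Relative to the geometric mean of the 8 adipocyte markers in the same library, which itself was lower by 0.52 on the log2 scale in obese VAT, the VAT groups of Gpd1, Dgat1 and Dgat2 overlapped. The mean difference between obese and lean VAT was then -0.28 for Gpd1, -0.46 for Dgat1 and -0.08 for Dgat2 on the log2 scale. For Agpat2 in SAT the difference was 1.17, with lean values from -4.07 to -3.38 and obese values from -2.90 to -2.03, and the groups did not overlap. The marker mean itself changed by -0.22 in SAT, where Cfd was the marker called. With another pseudocount or another marker set the Agpat2 difference in SAT lay between 1.04 and 1.18. These ratios are descriptions, and the markers may respond to diet themselves.

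**Figure D3:**
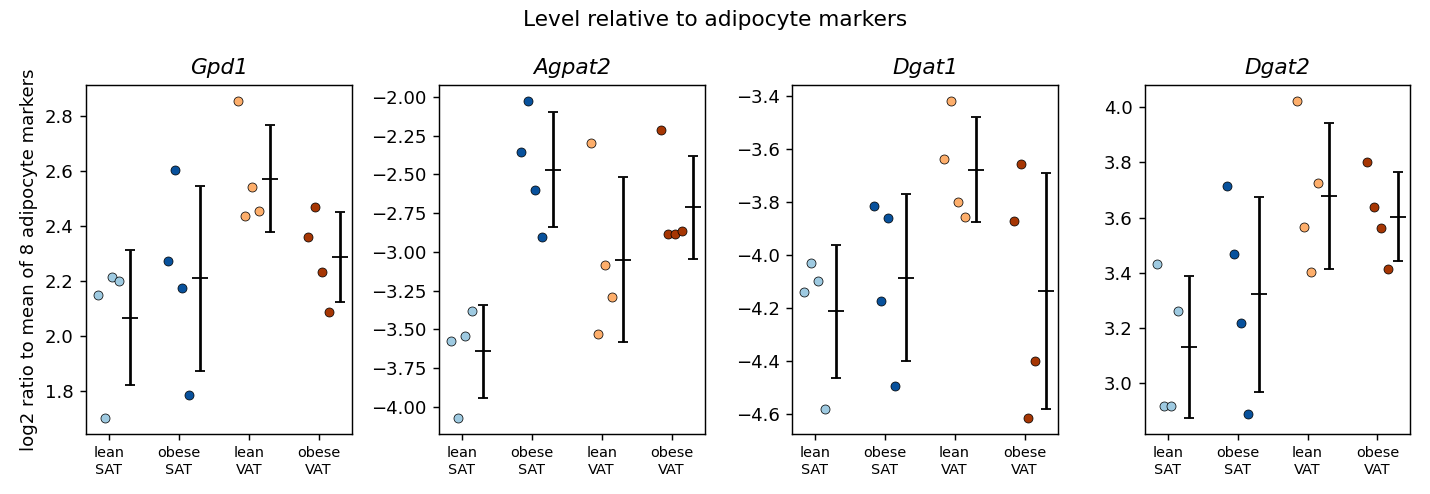
Log2 ratio of Gpd1, Agpat2, Dgat1 and Dgat2 to the geometric mean of 8 adipocyte markers in the same library (vertical axes do not start at 0 and differ between panels), with 4 mice per group as points and the mean and SD beside them. Lean and obese groups are apart only for Agpat2 in SAT, and they overlap in all VAT panels.

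Because SAT and VAT came from the same mice, the tissues were also compared within mouse. In lean mice, no difference between VAT and SAT was called for Gpd1, Agpat2, Dgat1, Dgat2 and Gpam, with log2 differences between -0.13 and 0.11 (SE 0.10 to 0.55) and edgeR adjusted p between 0.66 and 0.91. Agpat3 alone of the 6 was called, higher in VAT (1.33, SE 0.35, edgeR adjusted p = 0.010), where 8.67% of all genes tested were higher and 7.22% lower. Without lean mouse 1, whose VAT library was the shallowest and held Agpat3 at 16.7 CPM, its difference was 0.88 (adjusted p = 0.097).

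In obese mice, 5 of the 6 were lower in VAT than in SAT, where 15.1% of all genes tested were lower, 16.3% were higher and 31.3% were called in either direction. Log2 differences were -1.03 (SE 0.18, edgeR adjusted p = 0.00014) for Agpat2, -0.84 (SE 0.16, adjusted p = 0.00037) for Dgat1, -0.69 (SE 0.11, adjusted p = 5.0e-05) for Gpd1 and -0.48 (SE 0.10, adjusted p = 0.00093) for Dgat2. Gpam gave -1.60 (SE 0.54, edgeR adjusted p = 0.028), a call that was lost when any 1 obese mouse was left out (adjusted p between 0.053 and 0.18). With library totals alone, which shifted the median of all genes by 0.36 on the log2 scale and took the share of higher genes among those called from 52.0% to 83.4%, the differences of Agpat2, Dgat1 and Gpd1 were still called, while Dgat2 (-0.12, adjusted p = 0.29) and Gpam (-1.25, adjusted p = 0.081) were not. Dgat2 was not called either with no replicate block (-0.49, edgeR adjusted p = 0.072). Agpat3 stood the other way (0.69, SE 0.33, edgeR adjusted p = 0.12) and was called higher in VAT with library totals alone (adjusted p = 0.024) and without obese mouse 2 (adjusted p = 0.043). Of the 8 adipocyte markers, 6 were lower in VAT than in SAT of obese mice (Adipoq, Plin1, Lipe, Fabp4, Lep and Pparg) and 2 in lean mice (Fabp4 and Lep), and their part in these differences was not tested.

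The question of whether the diet response differed between the tissues was tested as the difference of the within-mouse comparisons. It was lower in VAT than in SAT for 4 of the 6, Agpat2, Gpd1, Dgat1 and Dgat2, where 1.62% of all genes tested were lower and 2.47% were called in either direction. The log2 difference was -1.13 (SE 0.25, edgeR adjusted p = 0.017) for Agpat2, -0.73 (SE 0.15, adjusted p = 0.011) for Gpd1, -0.90 (SE 0.22, adjusted p = 0.033) for Dgat1 and -0.57 (SE 0.14, adjusted p = 0.038) for Dgat2. These tests share their libraries with the diet comparisons in each tissue. All 4 calls were lost with no replicate block, when SAT and VAT of a mouse were taken as unrelated (edgeR adjusted p between 0.16 and 0.38).

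The ratio of VAT to SAT in each mouse shows the pattern. For Agpat2 its log2 was 0.79, -0.04, 0.11 and -0.36 in lean mice 1 to 4 and -0.51, -1.70, -0.73 and -1.09 in obese mice 1 to 4. Dgat1 gave 0.01, 0.02, -0.04 and 0.27 in lean mice and -0.71, -0.33, -1.19 and -1.04 in obese mice. For Gpd1 the values were 0.22, 0.15, -0.02 and -0.20 in lean mice and -0.56, -0.98, -0.38 and -0.83 in obese mice. Lean and obese mice did not overlap for these 3 genes, nor for Dgat2 (0.01 to 0.14 against -0.68 to -0.09) and Gpam (-0.46 to 0.88 against -1.46 to -0.65), where 5.24% of all genes tested did so in this direction. Only for Agpat3 among the 6 did they overlap.

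**Figure D4:**
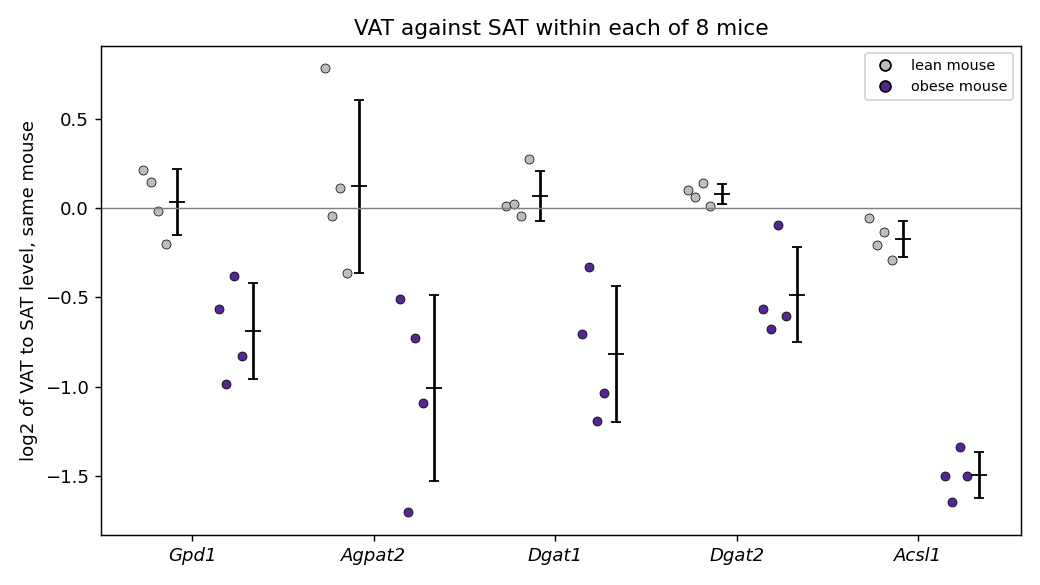
Log2 ratio of the VAT level to the SAT level in the same mouse (vertical axis, 0.5 CPM added to each level) for Gpd1, Agpat2, Dgat1, Dgat2 and Acsl1, with each of 4 lean and 4 obese mice as a point and the mean and SD beside them. Lean and obese mice are apart for each of the 5 genes, and all obese values are below 0. These are the 5 genes called for this difference, and 5.24% of all genes tested were apart in this direction.

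Taken one by one, 8 entries of the 6 genes passed the filter among 13288. Agpat2 NM_026212 rose in SAT (0.98, edgeR adjusted p = 0.017), where 6.2% of all entries rose, a call that was lost without obese mouse 2 (adjusted p = 0.085) and with library totals alone (0.77, adjusted p = 0.084). Gpd1 NM_010271 and both Dgat1 entries fell in VAT, where 4.09% of all entries fell. For the difference of the diet response, NM_026212 (-1.10, edgeR adjusted p = 0.016) and NM_010271 (-0.69, adjusted p = 0.015) were called lower, where 1.29% of all entries were, while the Dgat2 entry (-0.53, adjusted p = 0.057) and the Dgat1 entries (-0.88 and -0.73, adjusted p = 0.062 and 0.33) were not. Both calls were lost with library totals alone (edgeR adjusted p = 0.069 and 0.061), with no replicate block (adjusted p = 0.17 and 0.25), and without lean mouse 3, obese mouse 2 or obese mouse 4, and that of NM_010271 also without lean mouse 2. Against SAT, 1 entry (Agpat3 XM_006513720) was higher in lean VAT, where 8% of entries were, and in obese VAT the same entry was higher and 5 were lower, where 15.9% and 13.5% of entries were. The lean call was lost without lean mouse 1 (0.99, edgeR adjusted p = 0.070). In obese mice the call of XM_006513720 (0.89, edgeR adjusted p = 0.046) was lost in 6 of 8 fits that leave out a mouse and in 4 of 6 other alternatives, with a highest adjusted p of 0.18. That of Dgat1 XM_017316426 (-0.70, edgeR adjusted p = 0.040) was lost in 4 of 8 and in 4 of 6, library totals among them, with a highest adjusted p of 0.27. Dgat2 NM_026384 was not called with library totals alone (-0.12, edgeR adjusted p = 0.29) or with no replicate block (adjusted p = 0.081).

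The calls of this difference were close to the limit, and all 4 were lost with no replicate block. None of the 4 was called in 2 of the 8 fits that leave out a mouse (lean mouse 3, obese mouse 4), 1 was called without lean mouse 2 or obese mouse 2, and 2 without lean mouse 4 or obese mouse 1. Without obese mouse 3, Dgat1 was not called (-0.73, edgeR adjusted p = 0.14). Without the shallowest libraries, Dgat2 was not called (-0.53, edgeR adjusted p = 0.089). Over these fits the difference stayed between -1.25 and -0.86 for Agpat2, -0.79 and -0.59 for Gpd1, -1.05 and -0.73 for Dgat1, and -0.66 and -0.46 for Dgat2, with the highest adjusted p at 0.075, 0.064, 0.15 and 0.18. With library totals alone the 4 differences were -0.90, -0.50, -0.67 and -0.34 in that order and none was called (edgeR adjusted p between 0.063 and 0.13). That scaling shifted the median of all genes by 0.23 and took the share of higher genes among those called from 34.6% to 78.4%. Plin1 (-0.69, edgeR adjusted p = 0.031) and Lipe (-0.67, adjusted p = 0.025) of the adipocyte markers had a lower response in VAT as well.

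Among the 19 tested pathway genes the response of Acsl1 was the one called, by -1.33 (SE 0.14, edgeR adjusted p = 8.7e-06). Its ratio of VAT to SAT lay between -0.29 and -0.06 in lean mice and between -1.65 and -1.34 in obese mice on the log2 scale. The call held in each of the 8 fits that leave out a mouse, with adjusted p between 4.0e-05 and 0.00022, and with library totals alone. Most Acsl1 counts lay on NM_007981 (28531 of 30677), which gave a SAT change of 1.04 (edgeR adjusted p = 0.0055) and a difference between tissues of -1.30 (adjusted p = 1.3e-05). The entry XM_006509264, with 1853 counts, gave 0.57 (edgeR adjusted p = 0.15) and -1.17 (adjusted p = 0.042). The third entry tested, XM_006509265 with 196 counts, gave 0.25 (edgeR adjusted p = 0.78) and -0.07 (adjusted p = 0.98). Bscl2, the lipodystrophy protein seipin, gave -0.79 (SE 0.24, edgeR adjusted p = 0.084) and Aqp7 -0.81 (SE 0.25, adjusted p = 0.10), neither called. Lean and obese mice did not overlap for these genes, as for 5.24% of all genes tested in this direction.

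Some pathway genes differed between the tissues in both diets. With library totals alone the median of all genes shifted by 0.13 in lean mice, and the share of higher genes among those called went from 54.6% to 70.7%. Pck1 was higher in VAT, by 0.83 (SE 0.14, edgeR adjusted p = 0.00018) in lean and by 0.93 (SE 0.14, adjusted p = 2.3e-05) in obese mice. Tpi1, which interconverts the triose phosphates upstream of Gpd1, was lower in VAT, by -0.81 (SE 0.11, edgeR adjusted p = 1.0e-05) and -0.76 (SE 0.11, adjusted p = 1.3e-05). In lean mice 4 of the 19 were higher in VAT (Plpp1, Mogat2, Bscl2 and Pck1) and 1 was lower (Tpi1), where 8.67% of all genes tested were higher and 7.22% lower. By edgeR, Plpp1 was lost without lean mouse 2 or 3, with no filter on low counts and with no replicate block (highest adjusted p = 0.20), Mogat2 without lean mouse 1 or without the shallowest libraries (highest adjusted p = 0.067), Bscl2 without lean mouse 1, 3 or 4 or without the shallowest libraries (highest adjusted p = 0.13) and Pck1 with no replicate block (0.76, adjusted p = 0.058). In obese mice 2 were higher (Pck1 and Pck2) and 5 were lower (Acsl1, Plpp2, Plpp3, Tpi1 and Aqp7), where 16.3% of all genes tested were higher and 15.1% lower. Pck2 was lost without obese mouse 1 or 3 and without the shallowest libraries (edgeR adjusted p between 0.055 and 0.059), and Plpp2 without obese mouse 2 (-1.03, adjusted p = 0.050). Of the lower genes, Plpp3 (-0.09, adjusted p = 0.47) and Aqp7 (-0.34, adjusted p = 0.17) were not called by edgeR with library totals alone. Acsl1 was lower in VAT of obese mice by -1.5 (SE 0.10, edgeR adjusted p = 6.0e-10), from 328 ± 94.0 CPM in SAT to 115 ± 29.0 CPM in VAT (SD, n = 4).

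Some of the 6 genes varied together among mice of a group. After removal of the group means, the Pearson correlation of log2 CPM over the 16 libraries had a median of 0.47 over the 15 pairs of genes. It was 0.88 for Agpat2 with Gpd1, 0.83 for Agpat2 with Agpat3 and for Dgat2 with Gpd1, and 0.82 for Agpat2 with Dgat2. Agpat3 gave 0.61 with Gpam, 0.60 with Gpd1 and 0.57 with Dgat2. Dgat1 followed Dgat2 and Gpd1 less closely (0.47 and 0.46), and Agpat3 with Dgat1 gave 0.20, Gpam with Dgat1 0.27 and Gpam with Dgat2 0.06. In VAT of each diet, Agpat2 and Agpat3 were both highest in the shallowest library, that of mouse 1. With 1 mouse left out, the median correlation lay between 0.40 and 0.58. These points share 8 mice and the scaling of each library, and so describe these libraries.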

How the data were processed

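Poly(A) RNA of SAT and VAT from 8 mice was sequenced by the authors, trimmed with Trim Galore 0.6.6, aligned to GRCm39 (RefSeq annotation) with HISAT2 2.2.0 and counted per transcript with HTSeq 0.13.5 (versions from the submitters' processing notes). The strand setting and the handling of reads shared by transcripts are not given in the sources used here. The authors deposited raw counts and CPM, 32 value columns for 16 libraries, all mapped to a sample. The CPM deposited by the authors match counts over library totals to 4.9e-10, so no TMM factor is in them. One count stands for 0.0602 to 0.796 CPM, and limits from counts of 0 use 3 counts (95%, counting error only).

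Symbols were matched by RefSeq identifier for 106834 of 130343 entries (82.0%), and counts were summed per symbol. Tests were run in R 4.3.3 with the quasi-likelihood method of edgeR 4.0.16 (legacy=TRUE, TMM, CPM above 1 in at least 3 of 16 libraries, Benjamini-Hochberg over all features tested). Diets were compared with group means, all 16 libraries sharing the estimate of the spread. VAT against SAT, and the difference of the diet response, had the mouse as a fixed block, since both tissues came from each mouse. Over the 8 mice, the deviations of SAT and VAT from their group means had correlations from -0.0014 to 0.18, with a median of 0.076. Transcript entries were tested in the same way over 13288 features. The standard error is the log2 fold change divided by the square root of F. Per-library log2 values and ratios had 0.5 CPM added. Coordinates come from GENCODE M39 on GRCm39 and promoter sequences from RefSeq on GRCm38.p6.

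The 10 genes, the 28 pathway genes and the 12 cell type lists were chosen with earlier results of these data known. Text names the 10 genes, pathway genes called in any comparison, and markers a result turns on. Acsl3, Hsf1, Egfl7, Gm16537 and the Acsl1 entry were named after their values were seen. The other marker lists (lipid-associated macrophages, exocrine pancreas, skeletal muscle, brown and beige adipocytes, mesothelium, B cells, T cells, endothelium, liver) were summed per library. Alternatives were RLE size factors, no filter, DESeq2 1.42.0, limma voom 3.58.1 with the mouse as a random effect, a replicate-number block, no block, the 8 libraries of a tissue, each mouse left out, another pseudocount and another marker set. Library totals alone and a fit without the shallowest libraries were added after the data were seen. Tests were checked on simulated counts. Same-group libraries differed by more than counting error, with at least 8.40 chi-square per degree of freedom, so none is a copy. Python 3.11.15 with pandas 2.3.3, numpy 2.4.6 and matplotlib 3.10.9 made tables and figures.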

Additional observations from a re-analysis of the deposited data

Results flagged for a closer look

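The diet response of 5 genes was called different between VAT and SAT by edgeR, where 2.47% of all genes tested were called. These were Agpat2 (-1.13 on the log2 scale, VAT minus SAT), Dgat1 (-0.90), Dgat2 (-0.57), Gpd1 (-0.73) and Acsl1 (-1.33). All but Acsl1 lost the call with library totals alone and with no replicate block. For each of these 5 genes the ratio of VAT to SAT was lower in 4 of 4 obese mice than in any lean mouse. The same held for 5.24% of all genes tested, and the 5 were picked by this same difference. In the levels of the 6 measured genes, 24 groups of 4 in all, 0 groups had a highest or lowest library beyond Dixon's 95% limit (its gap to the nearest other library over the range of the group), where chance would mark about 1 group in 20. Agpat3 in VAT of lean mouse 1, at 16.7 CPM against 3.40 to 6.69 CPM in the other 3 mice, stayed within that limit.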

How the results depend on the processing

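Of 911 values of single genes and transcript entries recomputed under the alternatives, 780 kept their direction and their side of the limit, 106 lost a call, 7 gained one and 18 changed sign, all 18 being small uncalled values. With 1 mouse left out, the number of genes called ranged from 927 (without lean mouse 2) to 1466 in SAT (1414 with all mice), from 846 (without obese mouse 4) to 1626 in VAT (1482), from 134 (without obese mouse 4) to 386 for the difference of the diet response (301), from 1276 (without lean mouse 3) to 1945 for VAT against SAT in lean mice (1937) and from 2490.0 (without obese mouse 4) to 4076 in obese mice (3818). Of the 6 genes, 0 to 1 were then called in SAT (0 without lean mouse 2 or obese mouse 2), 0 to 4 for the difference, 0 to 1 for VAT against SAT in lean mice (0 without lean mouse 1). Of transcript entries, 938 (without lean mouse 2) to 1489 were called in SAT (1468), 832 (without obese mouse 4) to 1639 in VAT (1449), 134 (without obese mouse 4; 185 without lean mouse 2 and 152 without lean mouse 3) to 403 for the difference (288) and 2551 (without obese mouse 4) to 4224 for VAT against SAT in obese mice (3905). Entries of the 6 genes went from 0 (without obese mouse 2) to 1 in SAT, from 0 to 4 for the difference (4 without lean mouse 1, 0 without lean mouse 3 or obese mouse 4) and from 0 (without lean mouse 1) to 1 for VAT against SAT in lean mice. DESeq2 called 4 entries for the difference in place of 2. Fewer mice enter these fits.

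Ranges of log2 fold changes that crossed 0 with 1 mouse left out were -0.062 to 0.33 for Agpat3, -0.22 to 0.020 for Dgat1, -0.19 to 0.10 for Dgat2 and -0.25 to 0.047 for Gpd1 in SAT, -0.38 to 0.050 for Agpat2 in VAT, and -0.094 to 0.26 for Agpat2, -0.016 to 0.098 for Dgat1, -0.38 to 0.12 for Gpam and -0.021 to 0.10 for Gpd1 for VAT against SAT in lean mice. With no filter on low counts Dgat2 in SAT was at 0.029. Without the shallowest libraries, lean mice gave -0.094 for Agpat2 and -0.021 for Gpd1, Dgat2 was not called for the difference (-0.53, edgeR adjusted p = 0.089), and Agpat3 was not called for VAT against SAT in lean mice, which left there 0 of the 6 genes and 0 of their entries. With a pseudocount of 0.1 the ratio of Gpam to the adipocyte markers in VAT was -0.47 (-0.09 with 0.5). With 1 mouse left out, the ratios to the markers in VAT crossed 0 for Dgat2 (-0.17 to 0.039), Gpam (-0.21 to 0.056) and Agpat3 (-0.18 to 0.45). With library totals alone, 463 genes and 473 entries were called for the difference, but 0 of the 6 genes and 0 of their entries there, 0 genes and 0 entries of the 6 in SAT, and Agpat3 in SAT was at -0.027. The cause of these changes was not tested.

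With no replicate block, so that SAT and VAT of 1 mouse were taken as unrelated, 139 genes and 128 entries were called for the difference, and 0 of the 6 genes and 0 of their entries (Agpat2 -1.16, Gpd1 -0.73, Dgat1 -0.87 and Dgat2 -0.57, edgeR adjusted p from 0.16 to 0.38). The sources used here give the replicate numbers no meaning shared by lean and obese mice. Libraries with the same number deviated together with correlations from -0.093 to 0.17, and 7 of 16 correlated best with their own number. Their median was 0.067, against -0.022 for unlike numbers. For SAT with VAT it was 0.076 within a mouse and -0.037 between mice of a diet, and 7 of 16 correlated best with their own mouse. Whether the numbers mark something shared was not tested. A replicate block by that number gave the same calls in SAT and VAT for the 6 genes except that Dgat2 in VAT was called (-0.59, edgeR adjusted p = 0.022). Low counts limit Gpam and Agpat3 among the tested genes.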

Other observations

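Some markers of other immune cells rose in VAT of obese mice, where 6.89% of all genes tested rose and 5.28% fell. In SAT 6.35% rose and 5.25% fell. Of 5 tested markers of lipid-associated macrophages, the cells that gather around dying adipocytes, 4 rose in VAT (Trem2, Gpnmb, Cd9 and Atp6v0d2) and Lpl fell, while in SAT Atp6v0d2 rose and Lpl fell by edgeR. B cell markers rose in VAT for 2 of the 4 tested (Cd79a and Cd79b) and T cell markers for 2 of the 3 tested (Cd3g and Cd8a), with 0 called in SAT for both lists. The summed T cell level was 9.61 to 15.1 CPM in lean VAT and 23.7 to 47.9 CPM in obese VAT, while the B cell sums overlapped, with 29.4 to 231 CPM and 173 to 309 CPM.

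Of the 3 brown and beige adipocyte markers tested, Ucp1 rose and Cidea fell in each tissue. Mesothelium markers had 0 of 5 called in either tissue, and endothelium markers 0 of 3. Skeletal muscle had 1 marker tested and none called, and its sum stayed at or below 1.91 CPM. Cela1 of the exocrine pancreas list rose in both tissues, 1 of 3 tested, where 6.35% of all genes tested rose in SAT and 6.89% in VAT. The liver list had 1 marker tested and none called, but 1 obese VAT library had a sum of 401 CPM where the other 3 libraries of that group were far lower (group median 26.6 CPM).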
